A study of Arabidopsis thaliana with 6 samples.

Results

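The core cell-cycle machinery of Arabidopsis thaliana was examined as 43 genes, which are the A-type, B-type and D-type cyclins, the cyclin-dependent kinases (CDKs) CDKA and CDKB, and the CDK inhibitors of the KRP and SIM/SMR families. They were taken by their AGI codes, the Arabidopsis locus identifiers, out of 33602 gene models counted. RNA of whole seedlings at Boyes stage 1.02, an early seedling stage, was sequenced in 6 libraries. The 3 Dex libraries came from 35S::CUC2-GR seedlings kept for 6 h in 10 mL of medium with 10 µL of dexamethasone, and the 3 no_Dex libraries came from untreated 35S::CUC2-GR seedlings. The transgene, carried by both groups, fuses CUC2, a NAC transcription factor, to the steroid-binding part of the glucocorticoid receptor. It is driven by the cauliflower mosaic virus 35S promoter, which is active in most plant tissues, so expression of the fusion is not limited to the organ boundaries where CUC2 normally acts. Dexamethasone lets such a fusion protein enter the nucleus. The sources used here give neither the concentration of dexamethasone, nor a mock treatment, nor a line without the transgene, so the effects of the steroid, of handling and of CUC2-GR cannot be told apart.

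A CDK phosphorylates its targets only when a cyclin is bound to it, and successive cyclins carry the cell through the cycle. In plants the D-type cyclins with CDKA act mainly on entry into the cycle, the A-type cyclins in DNA synthesis and later, and the B-type cyclins with the plant-specific CDKB kinases at mitosis. The KRP and SIM/SMR proteins bind and inhibit cyclin-CDK complexes, and several of them are known for the switch from division to endoreplication, in which DNA is copied without division.

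Between 26161582 and 29481253 read pairs were counted per library, and the tested members had a median of 340 pairs (range 19 to 2318). Dex replicate 1 stood apart, with correlations of log2 CPM across genes of 0.988 and 0.987 with the other Dex libraries, against 0.994 or 0.995 within every other pair of the same group. CPM here is pairs per 1e6 counted pairs after scaling. CUC2, whose count sums the transgene and the endogenous gene, averaged 863 ± 9.27 CPM in Dex and 853 ± 32.4 CPM in no_Dex (SD, n = 3 each). As markers of the labelled tissue, RBCS1A of photosynthetic cells had 2154 to 3585 CPM in Dex and 2864 to 3333 CPM in no_Dex, and PYK10 of roots had 3387 to 4234 CPM in Dex and 4834 to 5117 CPM in no_Dex. The shoot meristem marker STM averaged 9.99 CPM in Dex and 10.11 CPM in no_Dex, whereas WUS was at 0 in every library.

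The transcript that rose was that of SIM, the founding SIM/SMR inhibitor, known for keeping leaf hairs from dividing while they endoreplicate, and its level was 1.37-fold that in no_Dex (95% interval 1.24 to 1.51, n = 3 libraries per group, edgeR). The transcripts of CYCD1;1 and CYCD5;1, both D-type cyclins, fell to 0.750 (0.634 to 0.888) and 0.772 (0.662 to 0.900) of the no_Dex level. No A-type cyclin, B-type cyclin, CDK or KRP passed the unpaired test. With the replicate number as a block, which pairs same-numbered libraries, CYCD5;1 was not called (edgeR adjusted p = 0.0547), whereas CYCD3;2 (0.0206) and KRP2 (0.0459) were called lower. The 250 bases upstream of the annotated start of SIM, CYCD1;1 and CYCD5;1, from the RefSeq TAIR10.1 genome, are shown because these genes were called in the unpaired test. Those of the mitotic cyclins CYCB1;1 and CYCB1;2 are shown beside them because they hold several matches to AACGG, the core of the mitosis-specific activator element bound by MYB3R factors. Capitals mark that core or its reverse complement CCGTT. The windows, in the order of the lines, are chr5:1267417-1267666 on the minus strand, chr1:26439306-26439555 and chr4:17678918-17679167 on the plus strand, and chr4:17624309-17624558 and chr5:1861704-1861953 on the minus strand.
SIM: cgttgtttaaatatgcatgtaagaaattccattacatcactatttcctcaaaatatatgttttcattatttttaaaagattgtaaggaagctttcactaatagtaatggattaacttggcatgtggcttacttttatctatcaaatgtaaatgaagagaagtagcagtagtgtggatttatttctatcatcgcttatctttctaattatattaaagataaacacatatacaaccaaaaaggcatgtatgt
CYCD1;1: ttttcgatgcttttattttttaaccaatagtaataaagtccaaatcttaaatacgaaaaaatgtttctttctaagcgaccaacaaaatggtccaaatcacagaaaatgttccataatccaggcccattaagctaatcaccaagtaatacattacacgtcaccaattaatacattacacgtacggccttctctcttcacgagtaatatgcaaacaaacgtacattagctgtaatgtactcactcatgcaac
CYCD5;1: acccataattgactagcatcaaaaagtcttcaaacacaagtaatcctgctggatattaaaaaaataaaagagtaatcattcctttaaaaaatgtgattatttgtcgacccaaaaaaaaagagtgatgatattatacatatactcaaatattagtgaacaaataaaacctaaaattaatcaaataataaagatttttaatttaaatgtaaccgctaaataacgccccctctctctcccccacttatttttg
CYCB1;1: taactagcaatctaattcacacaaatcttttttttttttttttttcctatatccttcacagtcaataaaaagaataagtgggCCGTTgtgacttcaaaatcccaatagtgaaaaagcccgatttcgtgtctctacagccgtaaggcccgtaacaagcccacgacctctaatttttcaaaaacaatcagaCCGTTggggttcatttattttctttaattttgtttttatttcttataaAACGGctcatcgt
CYCB1;2: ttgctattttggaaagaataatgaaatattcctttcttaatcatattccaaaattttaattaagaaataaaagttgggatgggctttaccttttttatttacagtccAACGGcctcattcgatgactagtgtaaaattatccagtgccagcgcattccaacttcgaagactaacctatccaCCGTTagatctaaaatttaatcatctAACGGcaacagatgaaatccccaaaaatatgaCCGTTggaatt

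The windows of the first 3 genes held no AACGG on either strand, and those of the mitotic cyclins, picked for their matches, held 3 and 4. The window of KRP1 held 6, and those of CYCB1;4, CYCB2;4 and CYCB3;1 held no match. On either strand the motif was in the window of 6 of 9 B-type cyclins (66.7%), 3 of 7 A-type cyclins (42.9%), 4 of 7 KRP genes (57.1%), 2 of 5 SIM/SMR genes, 1 of 10 D-type cyclins and 1 of 5 CDKs. The D-type match was in CYCD3;1, whose window lay wholly within the neighbouring gene AT4G34150. All of the SMR5 window lay within AT1G07510, and 163 and 144 bases of those of CDKB1;1 and CDKB2;1 lay within other genes. Over all 27443 protein-coding genes 20.6% of windows of this length held it. The E2F forms TTCCCGC and TTGGCGC, searched on both strands, were in 1.92% of all windows and in 1 of 43 members, CYCD3;3. A match is a run of letters and not a shown binding site.

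Dex was compared with no_Dex to find which of these genes differed in transcript level after 6 h of treatment. Of the 43 genes, 41 passed the filter on low counts and 2 did not. By edgeR's quasi-likelihood test with Benjamini-Hochberg adjustment over all genes, 1 of the 41 was higher in Dex, beside 5.99% of the 21344 genes tested, and 2 were lower, beside 8.4%. The 3 calls are 7.32% of the tested members, and 14.4% of all genes were called. Groups did not overlap in 7 members (17.1%), 1 with every Dex value higher and 6 with every Dex value lower, beside 36.3% of all genes. The median log2 fold change, Dex over no_Dex, was 0.01 over the members and 0.01 over all genes, and the median absolute log2 fold change was 0.11 over the members and 0.14 over all genes. All 41 members had a 95% interval within 2-fold in either direction, as had 89.5% of all genes, and 33 (80.5%) had one within 1.5-fold, as had 71.6% of all genes.

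In whole seedlings, fewer cells of a type and less RNA per cell cannot be told apart. The p-values measure the spread between these samples, and with 3 libraries in each group the smallest p of an exact permutation test of 1 gene is 0.1. The count of members lower was 0 without Dex replicate 2 or any 1 of the 3 no_Dex replicates, 1 without Dex replicate 3 and 3 without Dex replicate 1. The count of members higher was 3 without Dex replicate 1 and 1 with any other library left out.

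**Figure D1:**
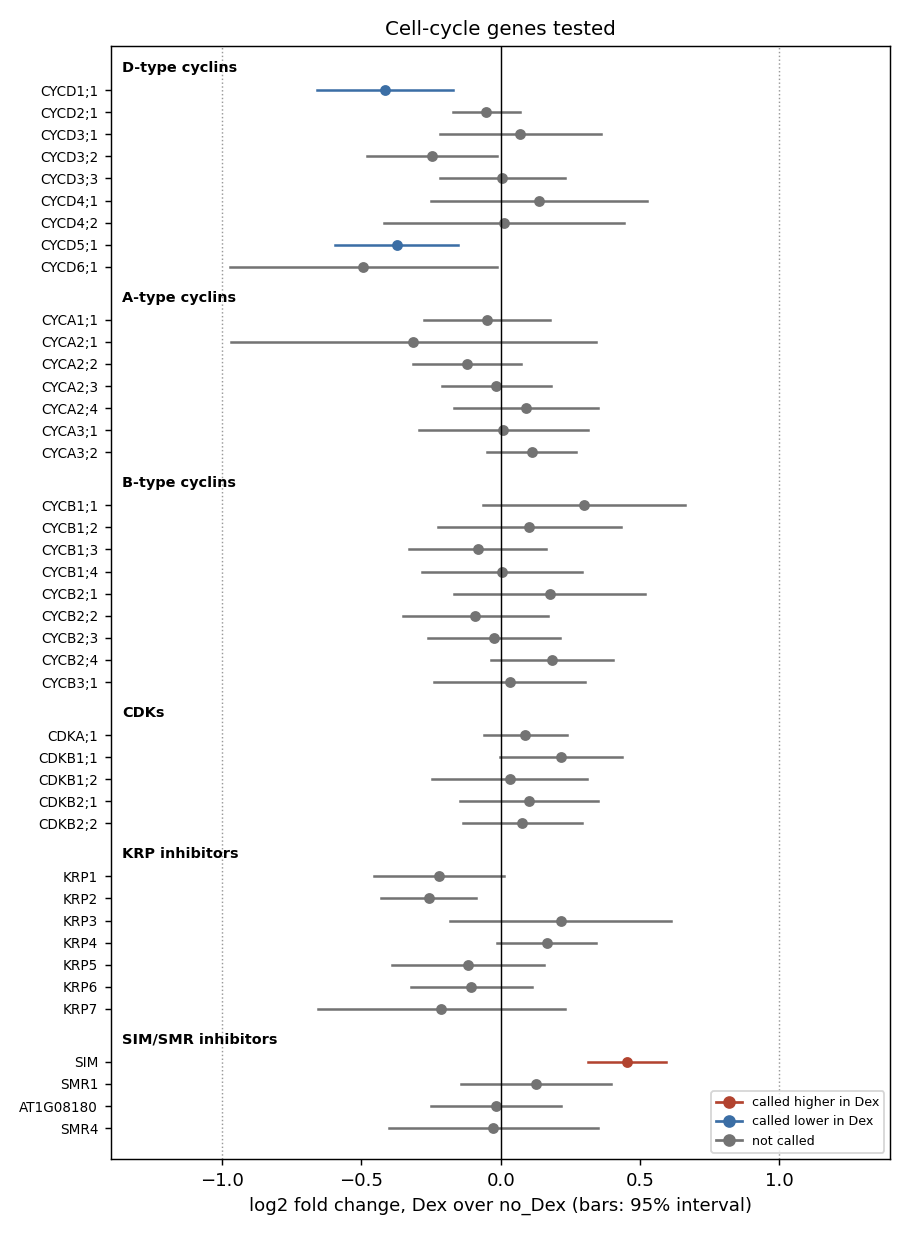
Log2 fold change of Dex over no_Dex for the 41 tested genes (points) with the 95% interval (bars), by family. Dotted lines mark 2-fold. SIM (0.45) lies to the right of 0 in red, CYCD1;1 (-0.42) and CYCD5;1 (-0.37) lie to the left in blue, and every interval stays within the dotted lines.

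Among the D-type cyclins, which link growth and hormone signals to entry into the cycle, 2 of 9 tested genes fell and none rose, beside 8.4% of all genes lower and 5.99% higher. Both calls were lost in some fits with 1 library left out. Over the 13 alternatives the log2 fold change stayed between -0.50 and -0.30 for CYCD1;1 and between -0.42 and -0.32 for CYCD5;1. Across the 9 tested D-type cyclins the log2 fold changes ran between -0.49 and 0.14, with a median of -0.05. CYCD1;1 (AT1G70210, chr1:26439556-26443007) had 20.02, 25.2 and 26.5 CPM in Dex, against 29.9, 33.9 and 31.8 CPM in no_Dex. Every Dex library was below every no_Dex library, and Dex replicate 1 was the lowest. Its log2 fold change was -0.42 (SE 0.11, 95% interval -0.66 to -0.17, edgeR adjusted p = 0.0358). The call was lost without Dex replicate 2 (adjusted p = 0.0688) and without no_Dex replicates 1, 2 and 3 (adjusted p = 0.0709, 0.138 and 0.105, all edgeR). The gene shares 144 bases with AT1G70209 on the opposite strand, which had a count of 0 in every library.

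CYCD5;1 (AT4G37630, chr4:17679168-17681264) had 6.06, 5.50 and 6.30 CPM in Dex, against 7.63, 8.02 and 7.51 CPM in no_Dex. The groups did not overlap, and the lowest library was Dex replicate 2. Its log2 fold change was -0.37 (SE 0.10, 95% interval -0.59 to -0.15, edgeR adjusted p = 0.0369). In the fit with the replicate block the adjusted p was 0.0547, and in the DESeq2 Wald test it was 0.0659. Without Dex replicates 2 and 3 it was 0.120 and 0.0555, and without no_Dex replicates 1, 2 and 3 it was 0.0936, 0.131 and 0.0912 (edgeR).

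The remaining D-type cyclins did not pass the test. CYCD3;2, the most abundant cyclin per kilobase, had 37.3, 46.5 and 46.7 CPM in Dex, against 46.4, 55.0 and 53.3 CPM in no_Dex. Dex replicates 2 and 3 lay just above no_Dex replicate 1, and within each replicate number the Dex value was the lower one, by 0.31, 0.24 and 0.19 on the log2 scale. This cyclin had a log2 fold change of -0.25 (SE 0.10, adjusted p = 0.148 by edgeR), and with the replicate block it was -0.25 (SE 0.05, edgeR adjusted p = 0.0206), which passed. CYCD6;1, which in roots is a target of SHR and SCR in a formative division, had 1.59, 2.71 and 2.42 CPM in Dex, against 2.77, 3.50 and 3.16 CPM in no_Dex. These groups did not overlap, and the log2 fold change was -0.49 (SE 0.21, 95% interval -0.97 to -0.01, edgeR adjusted p = 0.156). It shares 847 bases with AT4G03260 on the opposite strand, which averaged 125 CPM in Dex and 129 CPM in no_Dex, and the libraries are not stranded, so reads of the pair cannot be told apart there.

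CYCD2;1, a cyclin of the entry phase, averaged 31.7 ± 0.660 CPM in Dex and 32.9 ± 0.619 CPM in no_Dex (SD, n = 3 each). Its log2 fold change of -0.05 had the narrowest interval among the D-type cyclins, -0.17 to 0.07, although its groups did not overlap. CYCD3;1, a cytokinin-responsive cyclin, averaged 41.1 ± 6.81 CPM in Dex and 39.2 ± 4.01 CPM in no_Dex. CYCD3;3 averaged 29.0 ± 2.82 CPM in Dex and 28.8 ± 2.99 CPM in no_Dex. The 3 CYCD3 genes, whose products keep leaf cells dividing, thus had log2 fold changes of 0.07, -0.25 and 0.01 in the order of their numbers. CYCD4;1 and CYCD4;2, which act in stomatal lineage divisions of the hypocotyl, averaged 5.96 and 1.84 CPM in Dex, against 5.41 and 1.82 CPM in no_Dex. CYCD7;1, known from the guard mother cell, had 1, 4 and 3 pairs in Dex, against 5, 5 and 2 pairs in no_Dex, and was not tested. A count of 0 would allow up to 3 pairs, which is 0.102 to 0.115 CPM, so CYCD7;1 was near the limit of detection in every library, by counting error only.

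Some markers of other cell types were also lower in Dex, and 8.4% of all genes tested were called lower. The summed level of the stomatal lineage markers was 13.3 to 17.0 CPM in Dex and 18.9 to 22.8 CPM in no_Dex, and FAMA, which acts at the last step of that lineage, was 1 of 3 called (edgeR log2 fold change -0.30 with SE 0.07 and adjusted p = 0.0309). Root markers summed to 3504 to 4344 CPM in Dex and 4963 to 5249 CPM in no_Dex, with 1 of 4 called, PYK10 (-0.40, SE 0.10, edgeR adjusted p = 0.0314). Most of that sum was PYK10 itself, which averaged 3741 CPM in Dex and 4940 CPM in no_Dex. The root markers CASP1, RHD6 and PIN2 were not called, with log2 fold changes of -0.31, -0.11 and 0.09. Photosynthetic markers summed to 3695, 5878 and 5788 CPM in Dex and 5876, 5843 and 5230 CPM in no_Dex. Only Dex replicate 1 was below the range of no_Dex. Of these markers 1 of 4 was called, GLK1 (-0.45, SE 0.11, edgeR adjusted p = 0.0318). RBCS1A, PSBO1 and RCA were not called, with log2 fold changes of -0.01, -0.27 and -0.39. The call of FAMA was lost with the DESeq2 Wald test and without Dex replicate 2, Dex replicate 3 or any 1 no_Dex replicate, that of PYK10 without Dex replicate 2 or any 1 no_Dex replicate, and that of GLK1 without Dex replicate 2, no_Dex replicate 2 or no_Dex replicate 3. The part of these cells in the levels of the cyclins was not tested.

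**Figure D2:**
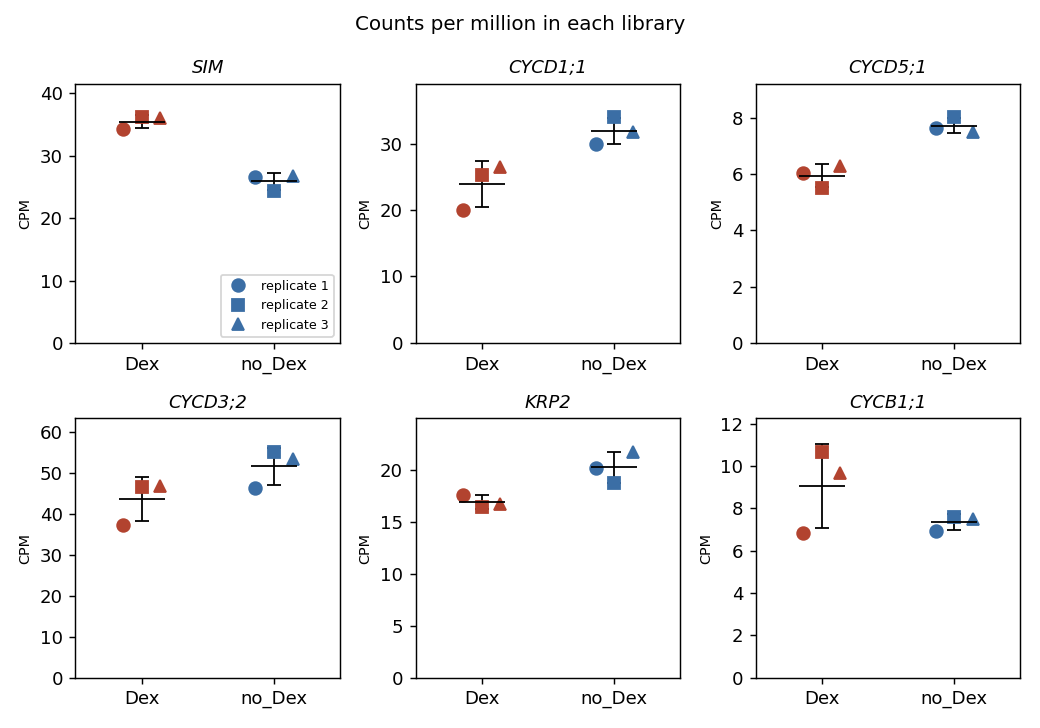
CPM in each library (points, with a symbol for each replicate number) with the group mean and SD (bars, n = 3) for 6 members, Dex on the left and no_Dex on the right. The 3 Dex values lie above the no_Dex values for SIM and below them for CYCD1;1, CYCD5;1 and KRP2, and the groups overlap for CYCD3;2 and CYCB1;1.

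The A-type cyclins, which act from DNA synthesis to mitosis, gave no call among 7 genes. Their log2 fold changes ran between -0.31 and 0.11, and their median was -0.01. CYCA3;2, the most abundant per kilobase and one of the S-phase CYCA3 genes, had 26.6, 29.0 and 27.5 CPM in Dex, against 23.7, 26.7 and 26.6 CPM in no_Dex. The groups overlapped, and the log2 fold change was 0.11 (SE 0.07, 95% interval -0.05 to 0.27, edgeR adjusted p = 0.325). CYCA3;1 averaged 5.29 ± 0.778 CPM in Dex and 5.24 ± 0.356 CPM in no_Dex. CYCA1;1 averaged 12.96 ± 1.20 CPM in Dex and 13.4 ± 1.17 CPM in no_Dex. Of the CYCA2 genes, whose products with CDKB1;1 hold back endoreplication, CYCA2;2, CYCA2;3 and CYCA2;4 averaged 8.05, 14.6 and 7.09 CPM in Dex, against 8.75, 14.7 and 6.66 CPM in no_Dex. CYCA2;1, known from guard cells and vascular tissue, was counted at 19 to 29 pairs in Dex and 26 to 42 pairs in no_Dex. Its interval, -0.97 to 0.34 on the log2 scale, was the widest of the family.

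No B-type cyclin was called either, among 9 genes of the mitotic phase, and in none did the groups fail to overlap. Their log2 fold changes ran between -0.09 and 0.30, with a median of 0.03. CYCB1;2, the most abundant per kilobase, had 23.1, 33.3 and 28.7 CPM in Dex, against 23.2, 30.5 and 25.5 CPM in no_Dex. In both groups replicate 1 was the lowest and replicate 2 the highest. With these values the log2 fold change was 0.10 (SE 0.14, 95% interval -0.23 to 0.43, edgeR adjusted p = 0.675).

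CYCB1;1, a marker of cells in G2 and M phase that also responds to DNA damage, had 6.84, 10.6 and 9.65 CPM in Dex, against 6.91, 7.60 and 7.51 CPM in no_Dex. Dex replicates 2 and 3 were above all no_Dex libraries, and Dex replicate 1 was below them. Its log2 fold change was 0.30 (SE 0.16, 95% interval -0.06 to 0.66, edgeR adjusted p = 0.246), and without Dex replicate 1 it was 0.47 (SE 0.10, edgeR adjusted p = 0.00772). CYCB1;3 and CYCB1;4 averaged 12.5 and 15.2 CPM in Dex, against 13.2 and 15.1 CPM in no_Dex. The CYCB2 genes, of the same phase, averaged 3.25, 10.9, 12.8 and 11.4 CPM in Dex for CYCB2;1 to CYCB2;4, against 2.88, 11.6, 12.95 and 10.01 CPM in no_Dex. CYCB3;1 averaged 6.45 CPM in Dex and 6.31 CPM in no_Dex. The log2 fold changes of these last 7 genes lay between -0.09 and 0.18.

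None of the 5 CDKs was called. All 5 had a log2 fold change above 0, between 0.03 and 0.22, as had 11039 of the 21344 genes tested a value above 0. CDKA;1, the kinase used throughout the cycle, had 78.5, 68.7 and 78.8 CPM in Dex, against 71.8, 69.8 and 71.1 CPM in no_Dex. Dex replicate 2 was the lowest of the 6 libraries and the other Dex libraries were the highest. The log2 fold change was 0.09 (SE 0.06, 95% interval -0.06 to 0.24, edgeR adjusted p = 0.406). CDKB1;1, a kinase active from late S phase to mitosis, had 14.2, 16.9 and 16.2 CPM in Dex, against 13.004, 14.9 and 12.7 CPM in no_Dex. Only no_Dex replicate 2 reached into the range of the Dex libraries. The log2 fold change was 0.22 (SE 0.10, adjusted p = 0.168 by edgeR), and without Dex replicate 1 it was 0.29 (SE 0.09, edgeR adjusted p = 0.0375). CDKB1;2, its closest relative, averaged 8.20 ± 0.948 CPM in Dex and 8.02 ± 0.846 CPM in no_Dex, and its log2 fold change of 0.03 ran between -0.04 and 0.13 over the alternatives. CDKB1;2 shares 281 bases with AT2G38630 on the opposite strand, which averaged 16.5 CPM in Dex and 17.1 CPM in no_Dex. Reads of that pair cannot be told apart there. CDKB2;1 and CDKB2;2, kinases of G2 and mitosis, averaged 34.9 ± 4.94 and 15.1 ± 1.65 CPM in Dex, against 32.5 ± 2.60 and 14.3 ± 0.642 CPM in no_Dex.

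The 13 mitotic genes, B-type cyclins and CDKB kinases, were low in the replicate 1 libraries of both groups. Dex replicate 1 was the lowest Dex library in 12 of the 13 and no_Dex replicate 1 the lowest no_Dex library in 10, and both held in 9 (69.2%), against 19.2% of all genes tested. The deviation from the group's mean log2 CPM had a median over the 13 genes of -0.16, 0.11 and 0.08 in Dex replicates 1 to 3, and of -0.11, 0.13 and 0.02 in no_Dex replicates 1 to 3. Their summed level was 159, 202 and 190.5 CPM in Dex, against 161, 189 and 172 CPM in no_Dex. The replicate 1 library had the lowest sum of each group. Replicate 1 was also lowest in both groups in 4 of 7 A-type cyclins, 6 of 9 D-type cyclins, 13 of 22 DNA replication genes (59.1%) and 11 of 19 genes of mitosis and cytokinesis (57.9%). This held for the KRP genes in 1 of 7 and the SIM/SMR genes in 0 of 4. The labels do not say what a replicate number marks. These genes share libraries, so they are not independent replicates of this pattern.

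**Figure D3:**
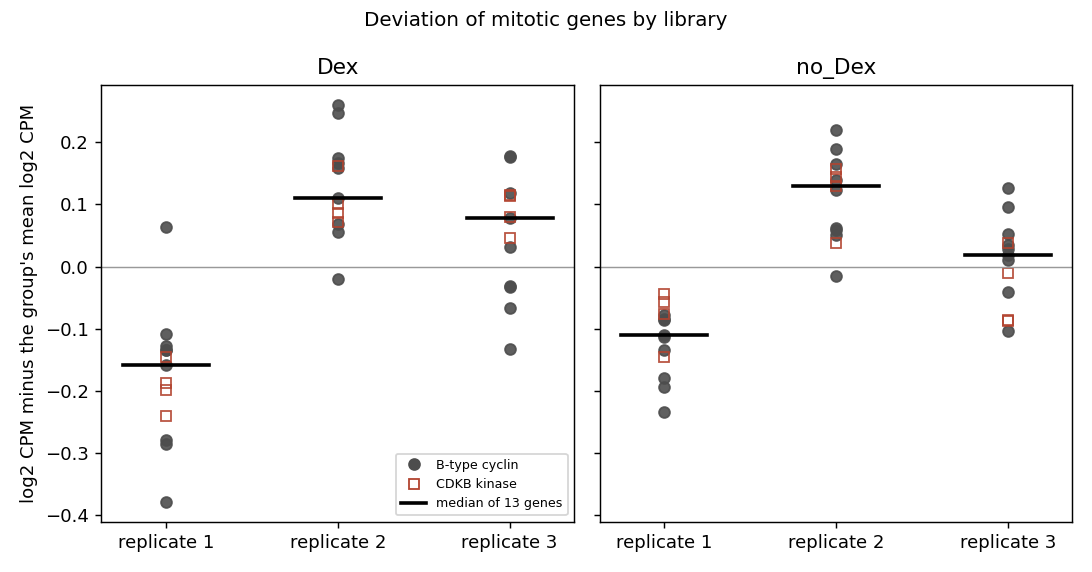
Log2 CPM minus the group's mean log2 CPM for the 9 B-type cyclins (filled circles) and 4 CDKB kinases (open squares) in each replicate of Dex (left panel) and no_Dex (right panel). Black bars are medians of the 13 genes. The medians of replicate 1 lie below 0 in both groups, at -0.16 in Dex and -0.11 in no_Dex.

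Of the 7 KRP inhibitors, relatives of the animal inhibitor p27Kip1 that bind D-type cyclins and CDKA, none was called. Their log2 fold changes ran between -0.26 and 0.22, with a median of -0.12. KRP2, the most abundant per kilobase and known for restraining lateral root initiation, had 17.6, 16.4 and 16.7 CPM in Dex, against 20.19, 18.8 and 21.7 CPM in no_Dex. Every Dex value was below every no_Dex value. The log2 fold change was -0.26 (SE 0.07, 95% interval -0.43 to -0.09, edgeR adjusted p = 0.0534), and the adjusted p was 0.0459 with the replicate block and 0.0254 without Dex replicate 1. KRP1 had 8.13, 7.98 and 8.05 CPM in Dex, against 9.99, 8.16 and 10.0 CPM in no_Dex, also without overlap (edgeR log2 fold change -0.22 with SE 0.10 and adjusted p = 0.187). KRP4 averaged 18.7 ± 0.539 CPM in Dex and 16.7 ± 1.42 CPM in no_Dex (edgeR log2 fold change 0.17 with SE 0.08 and adjusted p = 0.192). KRP4 shares 926 bases with AT2G32720 on the opposite strand, which averaged 44.8 CPM in Dex and 47.3 CPM in no_Dex. Reads of that pair cannot be told apart there. Log2 fold changes of both signs were thus present in the family, with 2 of 7 above 0, beside 11039 of the 21344 genes tested. KRP3, KRP5, KRP6 and KRP7 averaged 4.03, 3.78, 14.2 and 3.41 CPM in Dex, against 3.47, 4.10, 15.3 and 3.95 CPM in no_Dex.

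SIM was 1 of 4 SIM/SMR inhibitors tested, the only 1 called, and the member with the lowest p of all 41. SIM (AT5G04470, chr5:1266625-1267416, minus strand) had 34.2, 36.1 and 36.0 CPM in Dex, against 26.6, 24.3 and 26.8 CPM in no_Dex. These were 1011, 947 and 1012 pairs in Dex and 776, 689 and 763 pairs in no_Dex. Every Dex library was above every no_Dex library. The log2 fold change was 0.45 (SE 0.06, 95% interval 0.31 to 0.59, edgeR adjusted p = 0.00277), a 1.37-fold higher level. Within replicate numbers 1 to 3 the log2 ratios of Dex to no_Dex were 0.37, 0.57 and 0.43. The call held in all 13 alternatives, where the log2 fold change ran between 0.41 and 0.48 and the adjusted p between 1.64e-05 and 0.0185. SIM shares 338 bases with AT5G04475 on the opposite strand, a gene that is not among the gene models of the files. The libraries are not stranded, so reads of AT5G04475 in those bases cannot be told apart from reads of SIM. Their part in the count of SIM was not tested.

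Of the other SIM/SMR genes, SMR1 (LGO), which sets the number of giant endoreplicated cells in the sepal, had 14.9, 16.4 and 18.0 CPM in Dex, against 13.96, 13.6 and 17.6 CPM in no_Dex. Replicate 3 was the highest in both groups, and the log2 fold change was 0.13 (SE 0.12, 95% interval -0.14 to 0.39). SMR1 shares 375 bases with AT3G10527 on the opposite strand. AT1G08180, annotated as a CDK inhibitor, averaged 6.34 ± 0.501 CPM in Dex and 6.42 ± 0.245 CPM in no_Dex. SMR4 averaged 2.03 ± 0.144 CPM in Dex and 2.07 ± 0.287 CPM in no_Dex. SMR5, known as a gene induced by oxidative stress and DNA damage, was at 3, 4 and 6 pairs in Dex, against 2, 6 and 7 pairs in no_Dex, and was not tested. All of its annotated span, 266 bases, overlaps AT1G07510 on the opposite strand, which averaged 41.1 CPM in Dex and 40.3 CPM in no_Dex. Summed over the 5 genes the level was 57.7, 61.6 and 61.9 CPM in Dex, against 49.5, 46.2 and 53.2 CPM in no_Dex. SIM made up more of this sum than the other genes together in every library.

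Per kilobase of gene model, CDKA;1 had the highest level in both groups, 53.2 ± 4.06 CPM per kb in Dex and 50.04 ± 0.726 CPM per kb in no_Dex (SD, n = 3 each). SIM followed in Dex with 44.8 ± 1.35 CPM per kb, above CYCD3;2 with 30.7 ± 3.80. In no_Dex SIM had 32.7 ± 1.69 CPM per kb and CYCD3;2 had 36.5 ± 3.23, and in that group their values overlapped, so that their order there was not beyond the spread. CDKB2;1, CYCD3;1 and SMR1 came next in no_Dex, at 24.3, 23.8 and 22.4 CPM per kb, and did not differ beyond their spread. In Dex the same 3 genes had 26.1, 25.0 and 24.5 CPM per kb. The top gene of each other family in no_Dex was KRP2 at 20.6, CYCA3;2 at 17.3 and CYCB1;2 at 15.7 CPM per kb, and in Dex these had 17.3, 18.6 and 16.9 CPM per kb. At the low end, CYCA2;1, SMR5 and CYCD7;1 had 0.687, 0.693 and 0.0812 CPM per kb in Dex, against 0.851, 0.779 and 0.116 CPM per kb in no_Dex.

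**Figure D4:**
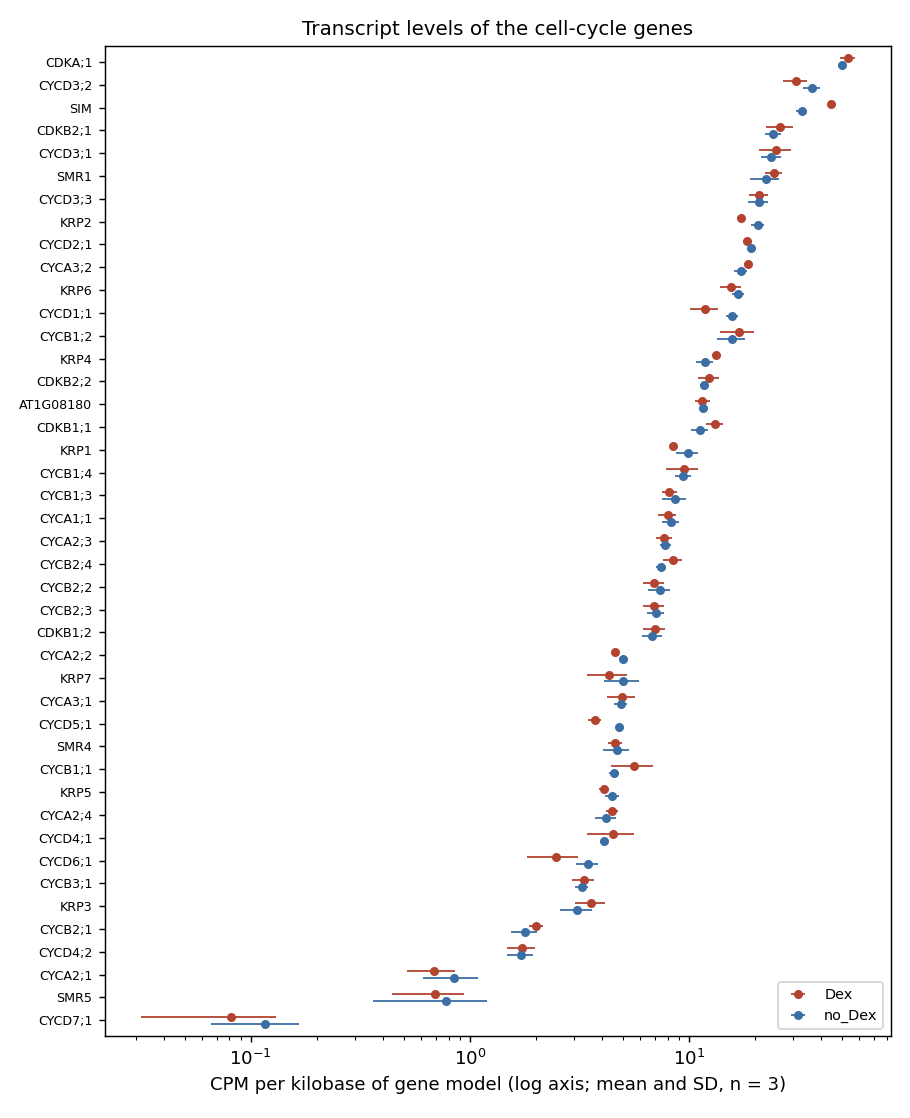
Level of the 43 genes in CPM per kilobase of gene model on a log axis, mean and SD of 3 libraries, with Dex in red and no_Dex in blue, ordered by the no_Dex mean. CDKA;1 is at the top with 53.2 in Dex and 50.04 in no_Dex, and CYCD7;1 is at the bottom with 0.0812 in Dex and 0.116 in no_Dex.

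The genes that surround the cyclins and CDKs in the cycle were read from 7 lists with 109 tested genes, of which 4 were higher and 2 lower in Dex, 5.50% of them, beside 14.4% of all genes. None of 22 DNA replication genes, 9 genes of the E2F-RBR switch, 19 genes of mitosis and cytokinesis, 16 genes of the APC/C, which marks cyclins for degradation, or 8 genes of CDK activation was called. Their median log2 fold changes were 0.07, 0.15, 0.02, -0.01 and 0.07 in that order, and 0.01 over all genes. In the E2F-RBR list 8 of 9 log2 fold changes were above 0, beside 11039 of the 21344 genes tested. Summed levels of this list were 134, 138 and 138 CPM in Dex, against 127, 127 and 129.7 CPM in no_Dex.

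The calls lay in the 2 remaining lists. Among 23 other cyclins, CDKs and SMR genes, 2 rose, 8.70% of them beside 5.99% of all genes. CDKE;1, a kinase of the Mediator complex and not of the cell cycle proper, had 32.5, 32.5 and 32.4 CPM in Dex, against 26.6, 26.1 and 26.9 CPM in no_Dex (edgeR log2 fold change 0.29 with SE 0.05 and adjusted p = 0.00849). AT5G02420, listed with the SMR genes, had 11.8, 12.7 and 12.04 CPM in Dex, against 8.83, 9.44 and 9.79 CPM in no_Dex (edgeR log2 fold change 0.38 with SE 0.08 and adjusted p = 0.0166). Its call was lost without Dex replicate 2, no_Dex replicate 1 or no_Dex replicate 2, with adjusted p of 0.0656, 0.0657 and 0.0671.

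Among 12 regulators of proliferation and endoreplication, 2 rose and 2 fell, 33.3% of them beside 14.4% of all genes. This list was chosen with earlier results of these data known. ARGOS, which promotes organ growth through ANT and D-type cyclins, had 46.8, 41.3 and 42.8 CPM in Dex, against 23.6, 19.3 and 21.3 CPM in no_Dex (edgeR log2 fold change 1.03 with SE 0.09 and adjusted p = 0.00044). It was the largest of the 6 changes called in these lists. GTL1, a trihelix factor that ends endoreplication in leaf hairs, had 97.1, 97.4 and 95.8 CPM in Dex, against 118, 124 and 122 CPM in no_Dex (edgeR log2 fold change -0.33 with SE 0.05 and adjusted p = 0.00482). The calls of ARGOS, GTL1 and CDKE;1 held in all 13 alternatives. PLT3, an AP2-type factor of the root meristem and lateral organs, averaged 10.3 CPM in Dex and 7.40 CPM in no_Dex (edgeR log2 fold change 0.48 with SE 0.12 and adjusted p = 0.0383), and shares 454 bases with AT5G10520 on the opposite strand. SHR, the regulator upstream of CYCD6;1 in the root, averaged 18.6 CPM in Dex and 22.1 CPM in no_Dex (edgeR log2 fold change -0.25 with SE 0.06 and adjusted p = 0.0375). The call of PLT3 was lost without Dex replicate 3 or any 1 no_Dex replicate, and that of SHR with the DESeq2 test and without Dex replicate 2, Dex replicate 3 or any 1 no_Dex replicate.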

How the data were processed

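Per the submitters' processing notes, the authors used Bowtie2 (no version given) and the TAIR10 build, and the libraries were not stranded per the labels. The files hold, per the file headers, a count of properly paired reads for each gene model as deposited, and beside it a count of single reads, with reads of equally good hits removed, so that counts of near-identical genes may be incomplete. A deposited column of the unit other holds the model length in bases per the file headers. Counted pairs were 95.2% to 95.6% of the pairs read.

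All further values are from here. In R 4.3.3, edgeR 4.0.16 dropped 12258 weakly counted models with filterByExpr (a count of 10 and a total of 15 as its minimums), applied TMM scaling and ran its two-sided quasi-likelihood test of Dex over no_Dex on the 21344 genes that were kept. Benjamini-Hochberg adjusted p under 0.05 was called. SE is the absolute log2 fold change over the square root of F, and the 95% interval uses the fit's degrees of freedom. CPM are pairs per 1e6 counted pairs after TMM scaling, divided by model length in kilobases where genes are compared.

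The members, lists and rules were chosen with earlier results of these data known. Full values go to members called, those with adjusted p under 0.1, and the most abundant of each family per kilobase, and list genes are named where called. ANT, which was not called, is given beside ARGOS. Other members given in each library were chosen after their values were seen. 11 list entries, AT1G08180 among them, have no such name in the reference and carry their AGI code where printed. Positions and sequences are from RefSeq TAIR10.1, since the files hold no coordinates, and 5 of 43 members have the length of a TAIR10.1 transcript. 13 members overlap another gene there.

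Both groups share replicate numbers. Across genes, deviations from a group's mean had correlations of 0.171, 0.119 and 0.125 for libraries with 1 number and of at most 0.0177 for others. Deviations cancel within a group, so the low values of the others are not separate evidence. The labels do not say that the numbers pair the libraries, and these correlations cannot settle it. A fit with the replicate number as a block was therefore run beside the unpaired one. No libraries were duplicates. Alternatives were DESeq2 1.42.0 size factors and Wald test, limma 3.58.1 voom, single reads, no filter, a floor of 1 CPM required in each of the 6 libraries, the block, and each library left out. The test was tested on simulated data.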

Additional observations from a re-analysis of the deposited data

How the results depend on the processing

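Over 13 alternatives, the 41 tested members and the 9 called genes of the other lists, 607 of 649 fits kept their side of the threshold, 37 lost a call, 5 gained one and 0 reversed a call, and 37 fits of genes called in neither fit changed sign. Members called lower numbered 1 with the DESeq2 Wald test, where CYCD5;1 was lost, and 0 to 3 with 1 library left out. Members called higher numbered 1 to 3 with 1 library left out. Over all genes, leaving out 1 library gave 519 to 2339 genes higher and 785 to 2726 lower. The higher and lower counts were 2339 and 2726 without Dex replicate 1, 718 and 1041 without Dex replicate 2, 688 and 1007 without no_Dex replicate 1, 519 and 785 without no_Dex replicate 2, and 617 and 918 without no_Dex replicate 3. The cause was not tested.

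With the replicate block 1604 genes were higher and 2146 lower, and 1 member was higher and 3 were lower. The block added CYCD3;2 and KRP2, removed CYCD5;1 and changed no other member's call. Scaling, filters, limma-voom and single reads left the counts of members at 1 higher and 2 lower. Low counts limit CYCD7;1 and SMR5, with at most 7 pairs a library, and the interval of CYCA2;1. The overlap with AT1G07510 also limits SMR5.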

Other observations

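The next 4 genes of the lists did not pass the test and were picked after their values were seen. CYCP2;1, a P-type cyclin, had 0.373, 0.534 and 0.641 CPM in Dex, against 1.13, 0.813 and 0.912 CPM in no_Dex (edgeR log2 fold change -0.88 with SE 0.27 and adjusted p = 0.0667). CYCP4;2, of the same family, had 1.63, 2.79 and 2.71 CPM in Dex, against 3.70, 3.39 and 4.14 CPM in no_Dex (-0.66, SE 0.21, edgeR adjusted p = 0.0714). It shares 1293 bases with AT5G61660 on the opposite strand, and reads of the pair cannot be told apart there. UVI4, an inhibitor of the APC/C known for holding back endoreplication, had 3.25, 5.34 and 4.59 CPM in Dex, against 2.64, 3.15 and 2.63 CPM in no_Dex (0.64, SE 0.20, edgeR adjusted p = 0.0641). E2FB, an activating E2F factor, had 8.57, 9.01 and 8.55 CPM in Dex, against 7.26, 7.53 and 6.84 CPM in no_Dex (0.27, SE 0.09, edgeR adjusted p = 0.071). In all 4 genes the groups did not overlap, for UVI4 by a gap smaller than the spread within Dex. The seed storage gene CRA1 had 0.576, 2.10 and 37.6 CPM in Dex, against 0, 0.0353 and 0.175 CPM in no_Dex, so that its high level was that of Dex replicate 3 alone.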
